A study of Mus musculus with 10 samples.

Results

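Collagen hydroxylases and lysyl oxidases were examined in the first lower molar of the mouse embryo at day 14 (E14). Members were the 10 genes whose symbol in GENCODE mouse release M21 was P4ha1, P4ha2, P4ha3, Plod1, Plod2, Plod3, Lox, Loxl1, Loxl2 or Loxl3, out of 18381 genes in the count table. All 10 members had enough counts to be tested. Wild type C57BL/6JOlaHsd teeth were kept in hanging drops for 6 h, either with 750 ng/ml of mouse recombinant IGF1 (insulin-like growth factor 1) or with an equal volume of its vehicle, PBS with 0.1% BSA. From each of 5 embryos, numbered 1, 2, 3, 4 and 6, a tooth of one side received IGF1 and its partner served as the control, with the sides balanced. Each tooth gave its own total RNA library, so there are 5 IGF1 and 5 control samples, and the comparison asks which genes changed within embryos. No untreated, uncultured tooth and no second dose or time was analysed here, and IGF1 was added to a whole tooth germ that holds both epithelium and mesenchyme.

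Collagen chains are modified in the endoplasmic reticulum before they fold into a triple helix. Prolyl 4-hydroxylase, an assembly of catalytic alpha subunits (P4ha1, P4ha2, P4ha3) with protein disulphide isomerase (P4hb), hydroxylates prolines and so stabilises the helix, and the lysyl hydroxylases (Plod1, Plod2, Plod3) hydroxylate lysines that later take part in cross-links. Both enzyme families use oxygen, 2-oxoglutarate, iron and ascorbate. Lysyl oxidases (Lox, Loxl1, Loxl2, Loxl3) are copper-dependent enzymes that oxidise lysines outside the cell, which lets collagen and elastin fibres become cross-linked. In the E14 molar, at the cap stage, the dental mesenchyme is the main source of fibrillar collagen.

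Of the 10 members, 4 were higher with IGF1 (P4ha1, P4ha2, Plod1 and Loxl2) and 0 were lower, by edgeR's quasi-likelihood test with embryo as a block and Benjamini-Hochberg adjustment over 14504 genes tested. Over all genes tested, 11.5% were called changed, 6.72% higher and 4.76% lower. Without adjustment, at a p under 0.05, 5 members were higher and 0 lower. The share of all genes at that unadjusted threshold is not given here, so this count has no background beside it. limma-voom and DESeq2 each called 4 members higher and 0 lower, where over all genes they called 1747 and 1364 in either direction. The median log2 fold change of the members was 0.29, beside -0.00 over all genes tested. In the prolyl 4-hydroxylase family 2 of 3 members rose, among lysyl hydroxylases 1 of 3, and among lysyl oxidases 1 of 4. Levels are in CPM (counts scaled to the size of the library, after TMM normalization), given for embryos 1, 2, 3, 4 and 6 in that order, and fold changes are on the log2 scale with their standard error (SE).

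**Figure D1:**
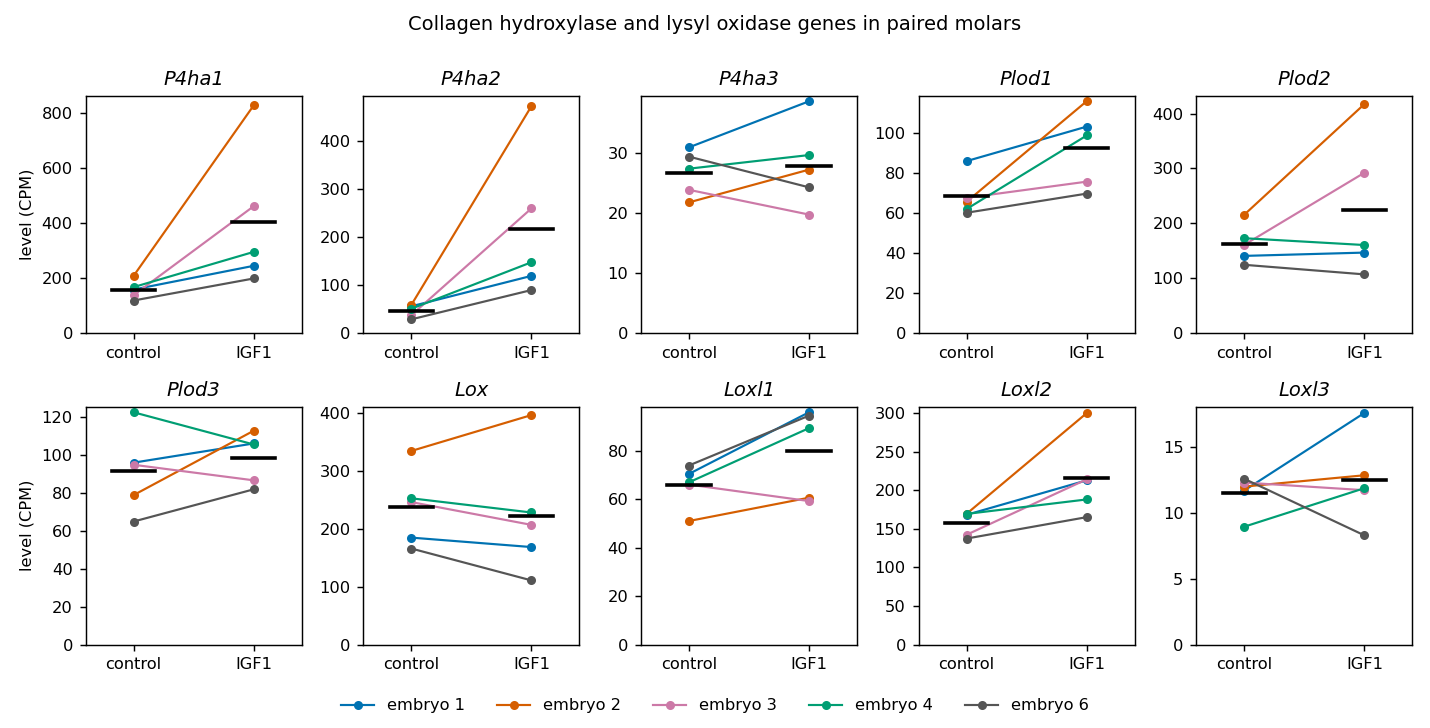
Level of each member in every tooth, in CPM on a linear axis that starts at 0 and differs between panels, with a coloured line joining the control and the IGF1 tooth of an embryo and a black bar for the mean of 5 teeth. All 5 lines climb for P4ha1, P4ha2, Plod1 and Loxl2, and only for P4ha2 does every IGF1 tooth lie above every control tooth.

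P4ha1 (ENSMUSG00000019916, protein coding, chr10:59323296-59373304 on the plus strand of GRCm38) encodes the most widely expressed catalytic alpha subunit. Control teeth held 159, 208, 138, 168 and 119 CPM, and IGF1 teeth 245, 827, 461, 295 and 199 CPM. Every IGF1 tooth was above its partner, although the lowest IGF1 tooth lay under the highest control tooth, that of embryo 2. P4ha1 rose by 1.2 (SE 0.19, n = 5 pairs, edgeR adjusted p = 0.00243), or 2.29-fold with a 95% interval of 1.73 to 3.04. The log2 ratio within embryos was 0.62, 1.99, 1.74, 0.82 and 0.74, so embryos 2 and 3 had the largest responses. Without embryo 2 the rise was 0.99 and adjusted p was 0.00409.

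P4ha2 (ENSMUSG00000018906, chr11:54100095-54131665, plus strand) encodes the second alpha subunit, known from cartilage and other matrix-forming tissues. Its control levels were 56, 58.6, 37.4, 50.9 and 28.9 CPM, and its IGF1 levels were 119, 472, 259, 148 and 89.8 CPM. The groups did not overlap, and embryos 2 and 3 again had the highest IGF1 levels. P4ha2 rose by 2.06 (SE 0.25, n = 5 pairs, edgeR adjusted p = 0.00054), or 4.17-fold with a 95% interval of 2.86 to 6.07. This was the largest change among the members. Within embryos the log2 ratio was 1.09, 3.01, 2.79, 1.53 and 1.63. Leaving out embryo 2 gave a rise of 1.79 with an adjusted p of 0.000871.

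P4ha3 (ENSMUSG00000051048, chr7:100285520-100319699, plus strand), the alpha subunit described last and expressed at a low level in most tissues, gave no called change. Control teeth held 30.9, 21.8, 23.9, 27.4 and 29.4 CPM and IGF1 teeth 38.6, 27.2, 19.7, 29.6 and 24.3 CPM. Levels were higher in 3 pairs and lower in 2 pairs, and the groups overlapped. The log2 fold change was 0.03 (SE 0.12, n = 5 pairs, edgeR adjusted p = 0.899) with a 95% interval of -0.23 to 0.30, and its sign turned when embryo 1 or 2 was left out (-0.028 and -0.042).

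The 3 alpha subunit genes thus differed in their measured response within the same teeth. P4ha2 rose more than P4ha1 in 5 of 5 embryos, with a mean difference of -0.83 for P4ha1 minus P4ha2 on the log2 scale (SD 0.24, 95% interval -1.13 to -0.53). P4ha1 minus P4ha3 was 1.14 (95% interval 0.28 to 2.0), and P4ha2 minus P4ha3 was 1.97 (95% interval 0.82 to 3.12), each positive in 5 of 5 embryos. For each of these 3 pairs the exact two-sided sign-flip test gave p = 0.0625, the smallest that 5 embryos allow, and p = 0.15 after adjustment over the 12 pairs of members compared within families, so no pair could pass 0.05 here.

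Levels were compared between genes per kilobase of exon. In control teeth P4ha1 made up 70.4% ± 3.44 (SD, n = 5) of the summed alpha subunit level, P4ha2 13.5% ± 1.81 and P4ha3 16.1% ± 4.12. With IGF1 the share of P4ha1 was 68.6% ± 1.98, that of P4ha2 23.3% ± 2.81 and that of P4ha3 8.10% ± 4.52. By mean share P4ha3 was above P4ha2 in control teeth and below it with IGF1. Among control teeth P4ha3 was the higher of these in 4 of 5, with overlapping ranges, and in embryo 2 P4ha2 was already higher (9.39 against 6.94 CPM per kilobase). The shares of a family sum to a fixed total, so they are not independent of each other and were not tested.

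**Figure D2:**
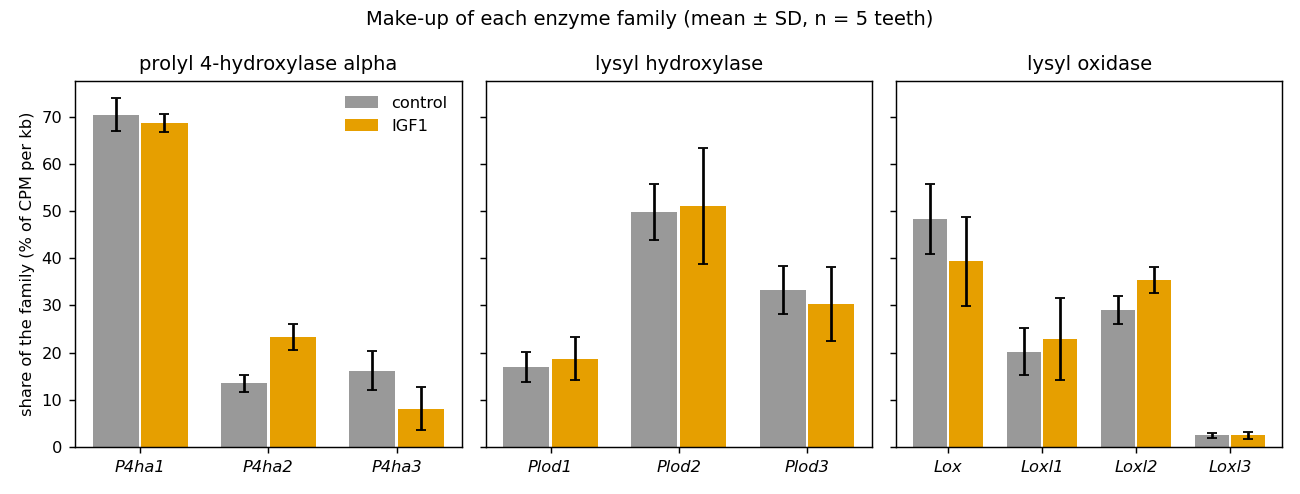
Share of each gene in the summed level of its family, in percent of CPM per kilobase of exon, with bars for the mean and error bars for the SD of 5 teeth. P4ha2 goes from 13.5% in control teeth to 23.3% with IGF1, and Loxl2 from 29.0% to 35.4%.

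P4hb, which encodes the beta subunit of the enzyme, also rose, by 0.60 (SE 0.11, n = 5 pairs, edgeR adjusted p = 0.0049). The counts of the 3 alpha subunit genes per 100 counts of P4hb were 48.9, 49.8, 34.4, 38.5 and 29.9 in control teeth and 53.7, 104, 85.0, 56.9 and 42.1 in IGF1 teeth. This ratio rose in 5 of 5 embryos, least in embryo 1 and most in embryo 3. The mean log2 change was 0.71 (SD 0.47, n = 5), or 1.64-fold, with p = 0.0625 in the exact two-sided sign-flip test, the smallest p that 5 embryos allow. P4hb also serves as a general folding enzyme, so its counts are not those of prolyl 4-hydroxylase alone.

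Promoter sequences from RefSeq (GRCm38.p6) were matched by symbol for 5 of the 10 members, P4ha1, P4ha2, P4ha3, Plod1 and Plod3. Those of the 3 alpha subunit genes and Plod3 are shown, because these genes span the range from the largest response to none called. Each is the 250 bases before the RefSeq transcription start, 5′ to 3′ on the strand of the gene, at chr10:59323046-59323295, chr11:54100674-54100923, chr7:100285270-100285519 and chr5:136986769-136987018, in that order and all on the plus strand. Capitals mark matches to ACGTG or GCGTG on either strand, the letters at the core of the element that hypoxia-inducible factors bind, so a match on the opposite strand appears as CACGT or CACGC in capitals. The letters of ACGTG are also contained in the E-box CACGTG.
P4ha1: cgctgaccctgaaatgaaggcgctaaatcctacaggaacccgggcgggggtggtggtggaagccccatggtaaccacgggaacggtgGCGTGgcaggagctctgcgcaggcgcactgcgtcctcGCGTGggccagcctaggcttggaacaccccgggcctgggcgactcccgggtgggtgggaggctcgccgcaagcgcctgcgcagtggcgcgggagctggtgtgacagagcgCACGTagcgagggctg
P4ha2: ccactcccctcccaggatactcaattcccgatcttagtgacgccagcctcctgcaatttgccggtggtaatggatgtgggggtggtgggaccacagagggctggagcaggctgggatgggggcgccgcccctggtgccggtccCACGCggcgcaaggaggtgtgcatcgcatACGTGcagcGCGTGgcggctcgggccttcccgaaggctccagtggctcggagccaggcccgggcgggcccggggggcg
P4ha3: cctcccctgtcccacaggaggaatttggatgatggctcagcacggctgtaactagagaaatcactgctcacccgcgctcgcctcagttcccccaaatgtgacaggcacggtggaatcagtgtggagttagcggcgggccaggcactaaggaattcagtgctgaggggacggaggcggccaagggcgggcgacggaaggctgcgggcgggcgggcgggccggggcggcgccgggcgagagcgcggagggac
Plod3: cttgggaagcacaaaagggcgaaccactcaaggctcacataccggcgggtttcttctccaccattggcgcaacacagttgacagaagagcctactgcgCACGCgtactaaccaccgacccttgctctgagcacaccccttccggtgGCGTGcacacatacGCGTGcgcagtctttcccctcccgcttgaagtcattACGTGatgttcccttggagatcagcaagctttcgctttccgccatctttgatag

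The P4ha1 window held 3 matches, GCGTG at 163 to 159 and at 126 to 122 bases before the start and ACGTG on the opposite strand at 16 to 12 bases. The P4ha2 window held 3 matches within a short stretch, GCGTG on the opposite strand at 107 to 103 bases, ACGTG at 78 to 74 bases and GCGTG at 69 to 65 bases before the start. The RefSeq start of P4ha2 lies 829 bases inside the GENCODE gene, so sequence around the more upstream GENCODE start was not searched. In P4ha3 these letters were not found in the window. Plod1 had a single match, GCGTG at 20 to 16 bases, and Plod3, whose level gave no called change, had 4 matches. Among 32851 mouse promoters of the same length, 16.6% held ACGTG, 28.2% held GCGTG and 38.6% held either. These shares count windows with any match, not the number of matches, and were not matched for GC content. The GC content of the windows was 69.6% for P4ha1, 70.0% for P4ha2, 67.2% for P4ha3, 61.6% for Plod1 and 55.6% for Plod3. A match describes the letters only and is not a measured binding site.

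Plod1 (ENSMUSG00000019055, chr4:147909753-147936767, minus strand) encodes lysyl hydroxylase 1, which acts on lysines in the triple helix. Control teeth held 85.9, 65.6, 67.6, 62.0 and 60.1 CPM and IGF1 teeth 103, 116, 75.6, 98.7 and 69.7 CPM. The groups overlapped, though the IGF1 tooth was the higher of the pair in 5 of 5 embryos. Plod1 rose by 0.43 (SE 0.10, n = 5 pairs, edgeR adjusted p = 0.0234), or 1.35-fold. This call was lost without embryo 2 (0.33, adjusted p = 0.0681), without embryo 4 (0.37, adjusted p = 0.0983) and without the pairing by embryo (0.45, adjusted p = 0.0889).

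Plod2 (ENSMUSG00000032374, chr9:92542223-92608428, plus strand) encodes the lysyl hydroxylase of the telopeptides, the chain ends where cross-links form. Its control levels were 141, 216, 161, 173 and 125 CPM and its IGF1 levels 147, 417, 292, 161 and 107 CPM. The IGF1 teeth of embryos 2 and 3 stood above all control teeth, whereas the other 3 IGF1 teeth lay within the control range or below it. The log2 fold change was 0.32 (SE 0.16, n = 5 pairs, edgeR adjusted p = 0.241) with a 95% interval of -0.04 to 0.69, and Plod2 was not called under any alternative tried. Leaving out embryo 2 gave 0.16 and leaving out embryo 3 gave 0.18. Within embryos the log2 ratio was 0.06, 0.95, 0.86, -0.11 and -0.22, so the same 2 embryos that had the largest P4ha1 and P4ha2 responses had the high values.

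Plod3 (ENSMUSG00000004846, chr5:136987019-136996648, plus strand) encodes an enzyme that both hydroxylates lysines and adds sugars to them. Levels were 95.8, 78.7, 94.7, 122 and 64.8 CPM in control teeth and 106, 113, 86.5, 105 and 81.8 CPM in IGF1 teeth. The tooth with IGF1 was higher in 3 pairs and lower in 2 pairs. The log2 fold change was 0.13 (SE 0.11, n = 5 pairs, edgeR adjusted p = 0.5) with a 95% interval of -0.11 to 0.36, and leaving out single embryos moved it between 0.024 (without embryo 2) and 0.22 (without embryo 4). Plod3 shares 529 exon bases with Znhit1 on the opposite strand, and reads there may have been assigned to either gene.

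Differences in response among the lysyl hydroxylases were smaller than their spread. Plod1 minus Plod2 was 0.12 on the log2 scale (SD 0.56, 95% interval -0.58 to 0.81, positive in 3 of 5 embryos, exact p = 0.688). Plod1 minus Plod3 was 0.30 (95% interval -0.17 to 0.76, and 0.15 without embryo 4) and Plod2 minus Plod3 was 0.18 (95% interval -0.54 to 0.90). Per kilobase, Plod2 made up 49.8% ± 6.00 (SD, n = 5) of the lysyl hydroxylase level in control teeth and 51.1% ± 12.3 with IGF1.

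Lox (ENSMUSG00000024529, chr18:52516067-52529867, minus strand) encodes the founding lysyl oxidase, active on collagen and elastin. Control teeth held 184, 334, 246, 252 and 166 CPM and IGF1 teeth 168, 396, 206, 228 and 111 CPM. Lox was lower with IGF1 in 4 pairs and higher in embryo 2, and both teeth of embryo 2 had the highest level of their group. The log2 fold change was -0.17 (SE 0.10, n = 5 pairs, edgeR adjusted p = 0.317) with a 95% interval of -0.39 to 0.05. Without embryo 2 it was -0.28 (adjusted p = 0.0791), without embryo 6 it was -0.07 and without the pairing by embryo -0.09. Summed bone and cartilage markers were also highest in both teeth of embryo 2, at 593 CPM in the control and 1057 CPM in the IGF1 tooth, against 154 to 427 CPM and 151 to 477 CPM in the other embryos, and their part in the Lox level was not tested.

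Loxl1 (ENSMUSG00000032334, chr9:58287738-58313186, minus strand) encodes the lysyl oxidase best known from elastic fibres. Levels were 70.4, 51.0, 66.0, 66.9 and 73.9 CPM in control teeth and 95.9, 60.6, 59.2, 89.3 and 94.5 CPM in IGF1 teeth. IGF1 teeth were higher in 4 pairs and lower in embryo 3. The log2 fold change was 0.26 (SE 0.09, n = 5 pairs, unadjusted p = 0.0198, edgeR adjusted p = 0.106), which did not pass the threshold. Without embryo 3 Loxl1 was called, at 0.36 with an adjusted p of 0.0195.

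Loxl2 (ENSMUSG00000034205, chr14:69609068-69695834, plus strand) encodes a lysyl oxidase that also acts on the type IV collagen of basement membranes. Control teeth held 168, 169.6, 142, 169 and 138 CPM and IGF1 teeth 213, 300.4, 214, 188 and 165 CPM. The control values were close together, 4 of 5 IGF1 teeth lay above all of them, and the IGF1 tooth of embryo 6 lay within their range. Loxl2 rose by 0.44 (SE 0.10, n = 5 pairs, edgeR adjusted p = 0.0142), or 1.35-fold. The call held when each embryo was left out in turn (0.34 to 0.51) and was lost without the pairing by embryo (0.46, adjusted p = 0.0710). Loxl2 shares 301 exon bases with the antisense gene Gm27177.

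Loxl3 (ENSMUSG00000000693, chr6:83034173-83052562, plus strand), a member needed for cartilage and palate development, had the fewest counts of the members, 34 to 108 per tooth. Levels were 11.7, 12, 12.3, 8.94 and 12.6 CPM in control teeth and 17.6, 12.8, 11.7, 11.9 and 8.28 CPM in IGF1 teeth. The values were higher in 3 pairs and lower in 2 pairs, with overlapping groups. The log2 fold change was 0.07 (SE 0.17, n = 5 pairs, edgeR adjusted p = 0.854) with a 95% interval of -0.32 to 0.45, and its sign turned without embryo 1 or without embryo 4 (-0.037 and -0.018). Loxl3 shares 535 exon bases with Htra2 on the opposite strand.

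The log2 ratio of Lox was below that of Loxl2 in every embryo, although in embryo 2 both were higher with IGF1. Lox minus Loxl2 was -0.61 on the log2 scale (SD 0.24, 95% interval -0.90 to -0.31), negative in 5 of 5 embryos. Lox minus Loxl1 was -0.44 (95% interval -0.91 to 0.04), also negative in 5 of 5, but hardly so in embryo 2 (-0.0039). Both differences had p = 0.0625 in the exact two-sided sign-flip test, the smallest possible, and 0.15 after adjustment over the 12 pairs. Per kilobase, Lox made up 48.3% ± 7.48 (SD, n = 5) of the lysyl oxidase level in control teeth and 39.3% ± 9.46 with IGF1. Loxl2 made up 29.0% ± 2.92 in control teeth and 35.4% ± 2.76 with IGF1, and Loxl3 2.51% ± 0.53 and 2.44% ± 0.68.

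**Figure D3:**
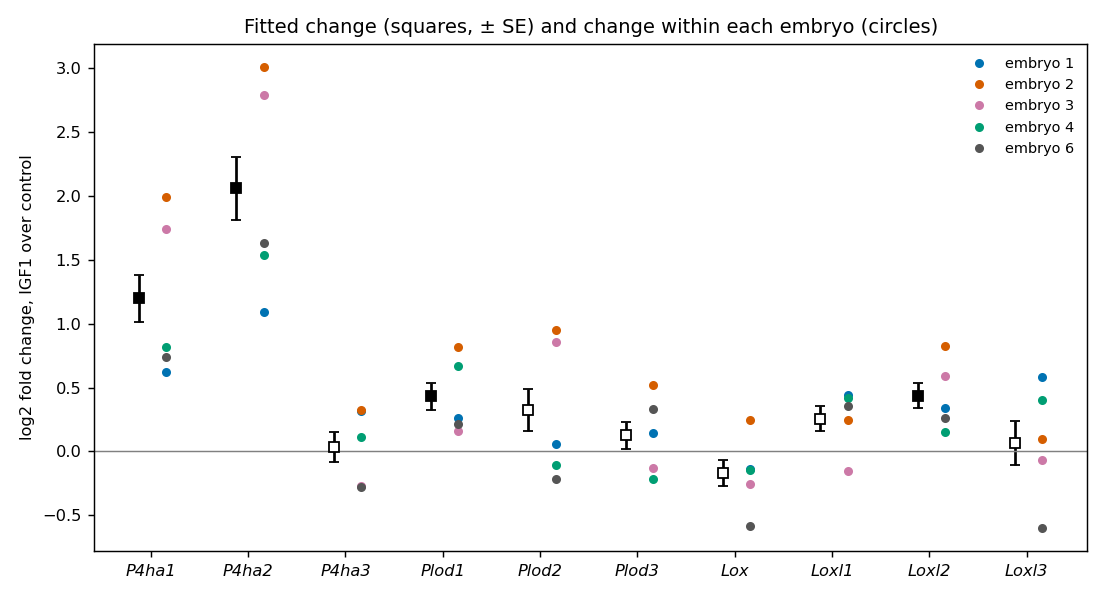
Log2 fold change of each member, IGF1 over control, with squares for the edgeR fit, bars for its SE and a circle for each embryo. Filled squares mark the called members P4ha1, P4ha2, Plod1 and Loxl2, for which all 5 circles lie above 0.

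Ordered by level per kilobase in control teeth, Lox was the highest member at 49.5 ± 13.9 CPM per kilobase (SD, n = 5). P4ha1 followed at 38.5 ± 8.18, Plod2 at 30.2 ± 6.46, Loxl2 at 29.1 ± 2.97, Plod3 at 20.2 ± 4.77 and Loxl1 at 19.9 ± 2.66 CPM per kilobase. Plod1 at 10.1 ± 1.52, P4ha3 at 8.5 ± 1.21, P4ha2 at 7.43 ± 2.04 and Loxl3 at 2.50 ± 0.32 CPM per kilobase were the lowest. Between neighbours in this order, only Loxl1 and Plod1, and P4ha2 and Loxl3, had ranges that did not overlap. With IGF1, P4ha1 was the highest at 98.5 ± 62.1 CPM per kilobase, above Lox at 46.4 ± 22.4. P4ha2 had a mean of 34.9 ± 25, Loxl1 of 24.2 ± 5.59 and Plod3 of 21.8 ± 2.98, but P4ha2 was above Loxl1 in only 2 of 5 IGF1 teeth and the ranges overlapped. The IGF1 teeth of embryos 2 and 3 stood above the others for both P4ha1 and P4ha2, and the SDs are wide accordingly.

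The other collagen modification and folding genes had 5 of 17 tested genes higher and 0 lower, with a median log2 fold change of 0.19. Those higher were P4hb, given above, Serpinh1 (the collagen chaperone HSP47, 0.49, adjusted p = 0.00956), Fkbp14 (a prolyl isomerase of the endoplasmic reticulum, 0.61, adjusted p = 0.0049), Colgalt2 (a collagen galactosyltransferase, 0.98, adjusted p = 0.0119) and P3h1 (prolyl 3-hydroxylase 1, 0.39, adjusted p = 0.027), the last of which was named after its value was seen. The Colgalt2 call was lost without embryo 2 (adjusted p = 0.0568) and without the pairing (adjusted p = 0.0706). That of P3h1 was lost without embryo 1, 2, 4 or 6 (adjusted p = 0.0514 to 0.0855) and without the pairing (adjusted p = 0.0829). Loxl4, the remaining lysyl oxidase paralog, held 1.03 to 4.38 CPM in control teeth and 0.71 to 13.0 CPM in IGF1 teeth, and was not called (0.82, SE 0.37, adjusted p = 0.185, and 0.46 without embryo 2). Serpinh1 levels rose in 5 of 5 embryos, though hardly so in embryo 3 (log2 ratio 0.022). Their mean went from 1165 ± 67.5 CPM (SD, n = 5) to 1661 ± 314 CPM.

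Among procollagen export and propeptide cleavage genes, 3 of 14 tested were higher and 1 was lower, with a median of -0.04. The 3 higher genes act in export from the endoplasmic reticulum: Sec24d, a COPII coat subunit (0.66, adjusted p = 0.000485), Mia3, the cargo receptor TANGO1 (0.36, adjusted p = 0.00462), and Sec13, another coat subunit (0.41, adjusted p = 0.0316). Sec13 was lower in embryo 3, and its call was lost without embryo 1, 4 or 6 (adjusted p = 0.103, 0.105 and 0.121) and without the pairing by embryo (0.0527). Tll1, a propeptide-cleaving protease, was lower (-0.63, adjusted p = 0.0099), a call lost without the pairing by embryo (adjusted p = 0.115).

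The substrates gave no calls. Of 15 collagen chain genes tested with edgeR, 0 were higher and 0 lower, also 0 at an unadjusted p under 0.05 and 0 with limma-voom or DESeq2, with a median log2 fold change of -0.03. Col1a1 levels were 1257, 979, 957, 1049 and 592 CPM in control teeth and 1262, 1600, 630, 1117 and 841 CPM in IGF1 teeth, with a log2 fold change of 0.14 (SE 0.15, adjusted p = 0.602). Col1a2 gave 0.10 (SE 0.12, adjusted p = 0.624). Without embryo 2 Col1a1 was at -0.0013 and Col1a2 at 0.02, and without embryo 3 they were at 0.32 and 0.24. In embryo 3 both collagen I chains were lower with IGF1 (-0.60 and -0.48), whereas P4ha1 and P4ha2 rose there by 1.74 and 2.79. In embryo 2 both chains were higher with IGF1 (0.71 and 0.41), beside 1.99 and 3.01 for P4ha1 and P4ha2. Summed bone and cartilage markers, a list that includes Col2a1, were 267, 593, 296, 427 and 154 CPM in control teeth. In IGF1 teeth they were 303, 1057, 173, 477 and 151 CPM, so lower with IGF1 in embryo 3 and higher in embryo 2. Their part in the collagen I values was not tested. Of 11 elastic fibre genes tested, 0 were higher and 1 lower, Fbln1 (-0.31, adjusted p = 0.0209), with a median of 0.01. The Fbln1 call was lost without embryo 2 (adjusted p = 0.0563), without embryo 4 (adjusted p = 0.0754) and without the pairing (adjusted p = 0.0650).

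**Figure D4:**
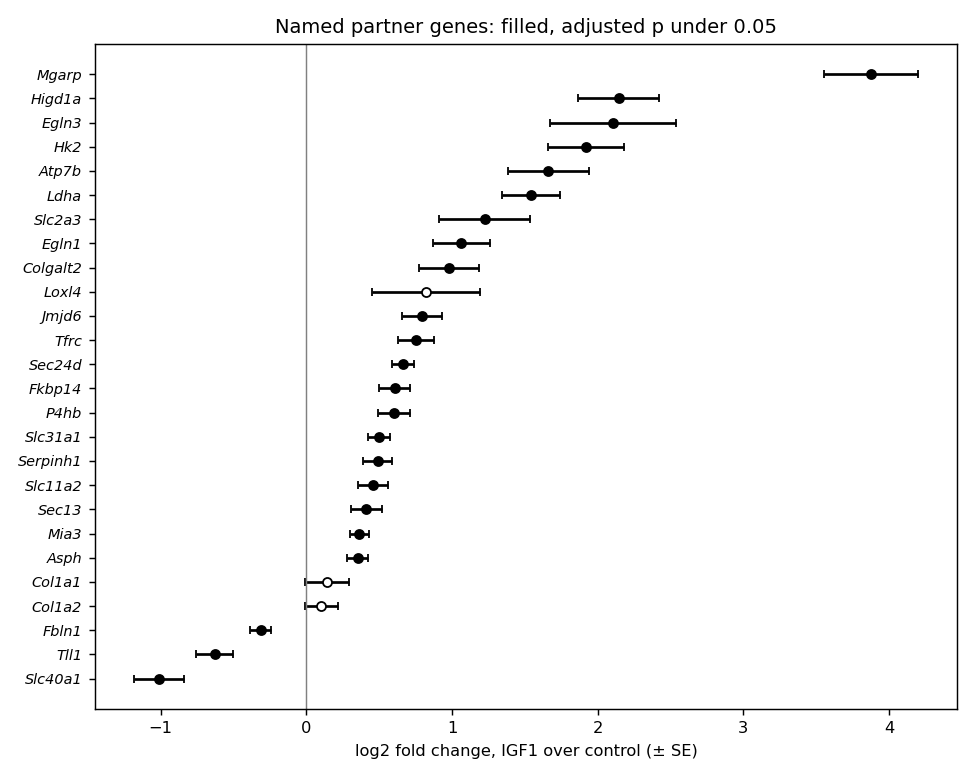
Log2 fold change, IGF1 over control, of the partner genes named other than P3h1, with bars for the SE and a filled symbol where the gene was called. The hypoxia response genes, Egln3 among them, and Atp7b lie farthest to the right, and Col1a1 and Col1a2 lie near 0.

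Other hydroxylases that use oxygen and 2-oxoglutarate had 4 of 10 tested genes higher and 0 lower, with a median of 0.35. These were Egln1 (1.07, adjusted p = 0.00537) and Egln3 (2.10, adjusted p = 0.0103), the prolyl hydroxylases of hypoxia-inducible factors, Jmjd6 (0.79, adjusted p = 0.00451) and Asph (0.35, adjusted p = 0.0129), the last not called without the pairing (adjusted p = 0.0731). Of 8 ascorbate and iron supply genes tested, 3 were higher and 2 lower, with a median of 0.04. Tfrc, the transferrin receptor (0.75, adjusted p = 0.00357), and Slc11a2, an iron importer (0.46, adjusted p = 0.0145), were among the higher genes. So was Slc2a3, a glucose and dehydroascorbate transporter (1.22, adjusted p = 0.0296). The Slc2a3 call was lost with DESeq2 (adjusted p = 0.0995) and without embryo 2 (0.82, adjusted p = 0.0606), 3 (adjusted p = 0.0827) or 4 (adjusted p = 0.0537), and that of Slc11a2 without embryo 6 (adjusted p = 0.0646). Slc40a1, the iron exporter ferroportin, was lower (-1.01, adjusted p = 0.00383). Copper supply genes had 2 of 5 higher and 0 lower, with a median of 0.02, namely the copper importer Slc31a1 (0.50, adjusted p = 0.00234) and the copper pump Atp7b (1.66, adjusted p = 0.00336). Atp7b was low in control teeth, at a mean of 2.93 CPM. The related pump Atp7a, at a mean of 115 CPM in control teeth, was not called (-0.03, adjusted p = 0.827).

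Genes known to respond to hypoxia were listed without any member. Of 20 tested, 18 were higher and 0 lower, with a median log2 fold change of 1.68. Both the 18 and the median include Mgarp, and also Egln3, which was counted among the other hydroxylases above too. Examples were Ldha (1.54, adjusted p = 0.000775), Higd1a (2.14, adjusted p = 0.000806) and Hk2 (1.92, adjusted p = 0.00108). Mgarp had 1 to 8 counts per control tooth and 17 to 114 per IGF1 tooth, so it passed the filter on low counts only through the IGF1 teeth, and its fitted value (3.88, adjusted p = 4.47e-05) rests on a control level near 0. Their median within embryos was 0.65, 2.84, 2.53, 0.96 and 1.06, so that embryos 2 and 3 were the highest here too, as for P4ha1, P4ha2 and Plod2. The part of this response in the changes of the members was not tested. The genes whose log2 CPM followed P4ha2 most closely over the 10 teeth were Pgm1 (Pearson r = 0.985), Fam162a (0.983), Eno1 (0.982), Vegfa (0.982) and Pgam1 (0.981), a description over teeth that share 5 embryos, groups and library preparation.

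**Figure D5:**
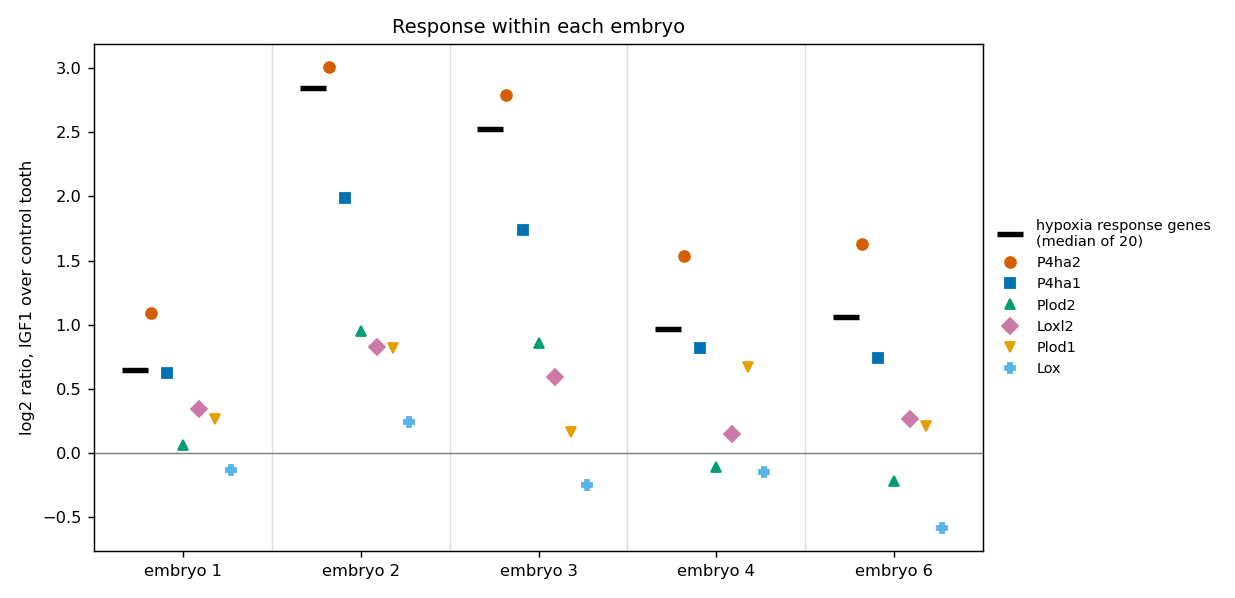
Log2 ratio of the IGF1 over the control tooth within each embryo for 6 members, with a bar for the median of 20 hypoxia response genes. P4ha2, P4ha1, Plod2 and the hypoxia median are highest in embryos 2 and 3, and Lox is above 0 only in embryo 2.

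Total counts ran from 2845773 to 8403151 in control libraries and from 3456634 to 8763113 in IGF1 libraries, lowest in both teeth of embryo 1, where the members are least precise. The mitochondrial share of counts was 2.45%, 3.28%, 2.64%, 2.17% and 2.94% in control teeth and 2.51%, 2.09%, 2.07%, 2.05% and 2.17% in IGF1 teeth, lower with IGF1 in 4 of 5 embryos including embryos 2 and 3, and its part in the results was not tested. The labelled tissue was checked against markers, and both dental epithelium (1907 to 2750 CPM summed in control and 2143 to 2857 CPM in IGF1 teeth) and dental mesenchyme (5901 to 6893 and 5179 to 6681 CPM) were measured in every tooth. Of 16 epithelial markers 1 was higher and 3 lower, of 18 mesenchymal markers 0 and 4, of 10 endothelial markers 0 and 2 (426 to 485 against 340 to 459 CPM), and of 7 red blood cell genes tested 0 and 6 (864 to 1444 against 613 to 1121 CPM). Of 8 bone and cartilage markers tested 1 was higher and 0 lower, of 9 macrophage markers 0 and 1, of 5 muscle markers 0 and 0, and of 4 nerve and glia markers 1 and 1. Within pairs, the summed mesenchymal, endothelial and red blood cell levels were each lower with IGF1 in every embryo. The mesenchymal list includes Col1a1 and Col3a1, also counted among the collagen chains, at mean control levels of 967 and 2245 CPM. The mesenchymal sum is therefore not independent of the collagen values. At an unadjusted p under 0.05 with edgeR, 10 mesenchymal markers were lower and 0 higher, without the share of all genes at that threshold beside it. The part of these shifts in the members' values was not tested. In whole teeth, fewer cells of a type and less RNA per cell cannot be told apart.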

How the data were processed

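RNA-seq was done on 10 single E14 molars (5 IGF1, 5 control). The authors deposited estimated counts per gene, not normalized. FastQC 0.11.8, Trimmomatic 0.39, Salmon 0.99.0, DESeq2 and GRCm38 are named in the submitters' processing notes. The annotation release, the transcript set and strand use are not given in the sources used here. All deposited counts were whole, so rounding changed none, and every gene had at least 10 counts in total. Of 18381 identifiers, 18287 had a symbol in GENCODE M21 and 94 had none. Estimated counts of overlapping or near-identical genes may split shared reads.

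Counts were tested with edgeR 4.0.16 (R 4.3.3): filterByExpr with a minimum count of 10, TMM normalization, quasi-likelihood test, embryo as a block and Benjamini-Hochberg adjustment over 14504 genes, called at an adjusted p under 0.05. The labels take both teeth of a number from one embryo, which sets the pairing. Deviations from group means correlated within embryos at 0.29, 0.17, -0.05, 0.13 and 0.27, against a median of -0.04 between embryos. Teeth of a group differed by more than counting noise (chi-square per degree of freedom 4.68 to 19.4) and each counted as 1 sample. The SE of a fitted log2 fold change was its absolute value divided by the square root of the quasi-likelihood F. Its 95% interval used that SE and the total degrees of freedom of the fit. Ratios within embryos used a prior count of 0.5. Differences between members of a family and the subunit ratio were tested by exact two-sided sign flips over 5 embryos, with 95% intervals from the spread over embryos.

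Alternatives were no block, DESeq2 size factors, the Wald test of DESeq2 1.42.0, limma-voom (limma 3.58.1), no filter, a stricter filter (5 CPM in 5 samples), a prior count of 5 for ratios and leaving out each embryo. The procedure was tested on simulated data. Named genes were all members, up to 4 called genes with the lowest adjusted p from each partner list, P4hb, Loxl4, Serpinh1, Col1a1 and Col1a2, and the 5 genes most correlated with the member of lowest adjusted p. Members and lists were chosen with earlier results of these data known. Figures were drawn with matplotlib 3.10.9.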

Additional observations from a re-analysis of the deposited data

Results flagged for a closer look

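A tooth stood apart from the other 4 of its group, by the gap to its nearest neighbour as a share of the group's range, in 8 of 72 groups of values tested, where chance gives about 1 in 20, or 3.6. Among the members this held for 2 of 20 groups. Plod1 in the control tooth of embryo 1 was the highest of its group (gap 0.711 of the range, 85.9 CPM), and Loxl3 in the control tooth of embryo 4 was the lowest (0.755, 8.94 CPM).

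Among partner genes, the IGF1 tooth of embryo 2 was the highest for P4hb (0.76) and for Sec24d (0.777). The control tooth of embryo 2 was the highest for Loxl4 (0.757), at 4.38 CPM and 30 counts. The control tooth of embryo 1, from the shallower pair of libraries, was the highest for Egln3 (0.842), Slc40a1 (0.78) and Slc2a3 (0.744).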

How the results depend on the processing

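Without the replicate block, 887 genes were called in place of 1666, of which 885 were called in both, and 2 members were higher (P4ha1 and P4ha2) in place of 4. Plod1 was then at 0.45 (adjusted p = 0.0889) and Loxl2 at 0.46 (adjusted p = 0.0710). The block changed no other member's call, and of the named partner genes Colgalt2, P3h1, Tll1, Sec13, Fbln1 and Asph were not called without it. Leaving out each embryo gave 986 to 1602 called genes, lowest without embryo 4 and 994 without embryo 6. On the log2 scale it gave -0.042 to 0.11 for P4ha3, 0.33 to 0.50 for Plod1 (not called without embryo 2 or 4), 0.16 to 0.45 for Plod2, 0.024 to 0.22 for Plod3, -0.28 to -0.07 for Lox, 0.22 to 0.36 for Loxl1 (called without embryo 3), -0.037 to 0.23 for Loxl3, 0.46 to 1.13 for Loxl4, 0.02 to 0.24 for Col1a2 and -0.0013 to 0.32 for Col1a1. Differences in response within families then ran from -0.049 to 0.32 for Plod1 minus Plod2, 0.15 to 0.40 for Plod1 minus Plod3, -0.024 to 0.36 for Plod2 minus Plod3, -0.36 to -0.14 for Lox minus Loxl3, -0.28 to -0.03 for Loxl1 minus Loxl2, 0.22 to 0.50 for Loxl2 minus Loxl3 and -0.017 to 0.26 for Loxl1 minus Loxl3. The cause of these shifts was not tested. P4ha1 (0.99 to 1.36) and P4ha2 (1.79 to 2.27) were called under all 11 alternatives. Of 110 values of the members under alternatives, 101 kept their direction and side of the threshold, as did 273 of 295 values of named partner genes (those of P3h1 added after seeing the data). For differences within families only the direction could be compared, and 69 of 72 kept it. Mgarp and Loxl4 could not be fitted under the stricter filter. With DESeq2, list counts that moved were 16 hypoxia response genes higher in place of 18, 2 ascorbate and iron genes higher in place of 3, 1 endothelial marker lower in place of 2 and 0 macrophage markers lower in place of 1. With limma-voom, 5 mesenchymal markers were lower in place of 4.

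Limits are the 5 embryos and the single dose and time. Lox (30 bases), Plod2, Plod3, Loxl2 and Loxl3 share exon bases with genes on the opposite strand. Counts of Loxl3 (34 to 108), Loxl4 (3 to 109) and Atp7b (12 to 127) were low. Counts per gene do not separate cell types, and intervals cover the spread between embryos of one experiment only.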
